A study of Mus musculus with 40 samples.

Results

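The libraries described here ask what the loss of Dppa2 does to mouse embryonic stem cells that already lack the Ctbp genes. They were chosen by their labels. Both libraries of Ctbp double knockout cells with an added Dppa2 knockout, called DKO_Dppa2_KO, were set against both libraries of Ctbp double knockout cells, called CtbpDKO. These are 4 of the 40 samples of the series and 4 of the 12 libraries in the genotype count table. All of them come from E14tg2a, a mouse embryonic stem cell line, and no library carries a drug treatment or a time point in the labels. By their descriptions, DKO_Dppa2_KO and CtbpDKO share the loss of the Ctbp genes and differ by Dppa2. The titles of the DKO_Dppa2_KO libraries instead name Dppa2 and Dux, so a further difference in Dux cannot be told from the labels. Further groups served for comparison, each with 2 libraries: unmodified cells (WT), cells without Dppa2 but with intact Ctbp genes (Dppa2KO), and Ctbp double knockout cells that also lack Dux (Ctbp_DuxTKO). Another 2 libraries, of cells without Dux but with intact Ctbp genes (DuxKO), entered the shared fit and are plotted, but no comparison is made with them. The labels do not say how the knockouts were made, how many clones each genotype stands for, or whether the libraries of a group came from separate cultures. P-values therefore measure the spread between these libraries, which may be technical.

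Dppa2 is a small nuclear protein of pluripotent cells that binds DNA together with its partner Dppa4. The pair is known to keep a set of CpG-rich developmental and germline promoters free of DNA methylation, and to help switch on Dux. Dux encodes a homeodomain transcription factor that activates genes of the 2-cell embryo, such as the Zscan4 and Usp17l families, and in embryonic stem cell cultures these genes are active in a rare and transient 2-cell-like state. CTBP1 and CTBP2 are corepressors that bring histone-modifying enzymes to DNA-bound repressors.

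Promoters of 4 genes show the kinds of sequence at the genes that fell after Dppa2 loss. Each run covers 250 bases before to 50 bases after an annotated start, printed 5' to 3' along the gene's strand. The sequences are from RefSeq on GRCm38.p6, the same build as mm10. The Ddx4 window lies inside the annotated gene, whose outermost start is at chr13:112652633, so its CpG values belong to another start. Zscan4c stands for the 2-cell genes, Syce1 and Ddx4 for the germline genes and Meg3 for the imprinted Dlk1-Dio3 cluster. In Zscan4c the capitals mark a match, read on the opposite strand, to GATTNNATC, a core of the sequence that DUX binds, which lies 113 bases before the start. In the other promoters the capitals mark CpG dinucleotides, the sites of DNA methylation.
Zscan4c: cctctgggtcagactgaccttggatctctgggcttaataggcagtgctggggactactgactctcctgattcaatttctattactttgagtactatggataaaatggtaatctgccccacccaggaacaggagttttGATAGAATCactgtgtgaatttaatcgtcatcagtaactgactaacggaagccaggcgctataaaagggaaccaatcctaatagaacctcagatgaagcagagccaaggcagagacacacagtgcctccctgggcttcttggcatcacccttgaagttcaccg
Syce1: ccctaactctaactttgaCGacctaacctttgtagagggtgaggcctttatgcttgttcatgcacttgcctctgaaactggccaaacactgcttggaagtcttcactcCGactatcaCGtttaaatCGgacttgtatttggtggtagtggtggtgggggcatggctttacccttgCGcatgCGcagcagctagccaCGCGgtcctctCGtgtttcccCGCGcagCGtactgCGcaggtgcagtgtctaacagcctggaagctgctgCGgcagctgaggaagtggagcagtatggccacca
Ddx4: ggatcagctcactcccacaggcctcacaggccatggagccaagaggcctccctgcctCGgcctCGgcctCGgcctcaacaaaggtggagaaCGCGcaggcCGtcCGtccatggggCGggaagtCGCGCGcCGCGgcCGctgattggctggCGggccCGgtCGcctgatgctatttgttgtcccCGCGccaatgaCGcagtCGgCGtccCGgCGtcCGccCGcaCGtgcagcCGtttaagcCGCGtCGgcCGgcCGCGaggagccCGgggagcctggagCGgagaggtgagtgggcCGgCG
Meg3: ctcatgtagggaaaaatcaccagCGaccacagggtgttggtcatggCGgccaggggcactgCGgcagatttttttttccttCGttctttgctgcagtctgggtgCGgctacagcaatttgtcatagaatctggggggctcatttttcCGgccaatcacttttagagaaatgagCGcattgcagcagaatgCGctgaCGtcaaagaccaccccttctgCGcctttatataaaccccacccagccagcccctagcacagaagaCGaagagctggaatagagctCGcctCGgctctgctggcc
These windows lie at chr7:11005495-11005794 on the plus strand (Zscan4c), chr7:140787805-140788104 on the minus strand (Syce1), chr13:112652261-112652560 on the minus strand (Ddx4) and chr12:109540746-109541045 on the plus strand (Meg3). The Zscan4c window holds 4 CpGs, Syce1 holds 14, Ddx4 holds 38 and Meg3 holds 13. Over the set, 12523 of the 21193 genes tested had a promoter in the table.

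The targeted genes were examined first, because the titles of the DKO_Dppa2_KO libraries name Dppa2 and Dux while their descriptions name the Ctbp double knockout and Dppa2. Dppa2 (chr16:48310274-48319513, mm10) stood at 89.9 and 101 CPM (counts relative to the total of the library, scaled for its composition) in CtbpDKO and at 21.3 and 19.7 CPM in DKO_Dppa2_KO. It fell 4.67-fold, with a log2 fold change of −2.22 (SE 0.11) and an adjusted p of 1.31e-07 by the quasi-likelihood test of edgeR, the test behind every adjusted p given here. Between 426 and 464 Dppa2 counts remained per DKO_Dppa2_KO library, and a count per gene does not show which exons they come from. In WT the gene had 57.3 and 60.9 CPM, and in Dppa2KO 33.2 and 29.1 CPM. Both CtbpDKO libraries thus held more Dppa2 RNA than both WT libraries, and the DKO_Dppa2_KO libraries held the least of all groups.

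Ctbp1 had 1 and 2 counts in CtbpDKO and 4 and 0 counts in DKO_Dppa2_KO, against 64.1 and 68.8 CPM in WT. Ctbp2 had 43.6 and 43.8 CPM in CtbpDKO and 36.5 and 37.0 CPM in DKO_Dppa2_KO, against 211 and 215 CPM in WT. The DKO_Dppa2_KO libraries were therefore low in both Ctbp genes, as the description says. Duxf3, the name of Dux in this annotation, had 40 and 24 counts in CtbpDKO and 0 in both DKO_Dppa2_KO libraries, at least 6.82-fold lower (adjusted p = 0.0145). It also had 0 counts in both Ctbp_DuxTKO libraries, so its level cannot tell a deleted gene from a silent one. Leaving out any 1 of the 4 libraries ended the call of Duxf3, with adjusted p-values from 0.0631 to 0.106. Dppa4, the partner of Dppa2, had 55.3 and 52.98 CPM in CtbpDKO and 58.5 and 60.6 CPM in DKO_Dppa2_KO, a log2 difference of 0.14 that did not pass the test (adjusted p = 0.456).

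**Figure D1:**
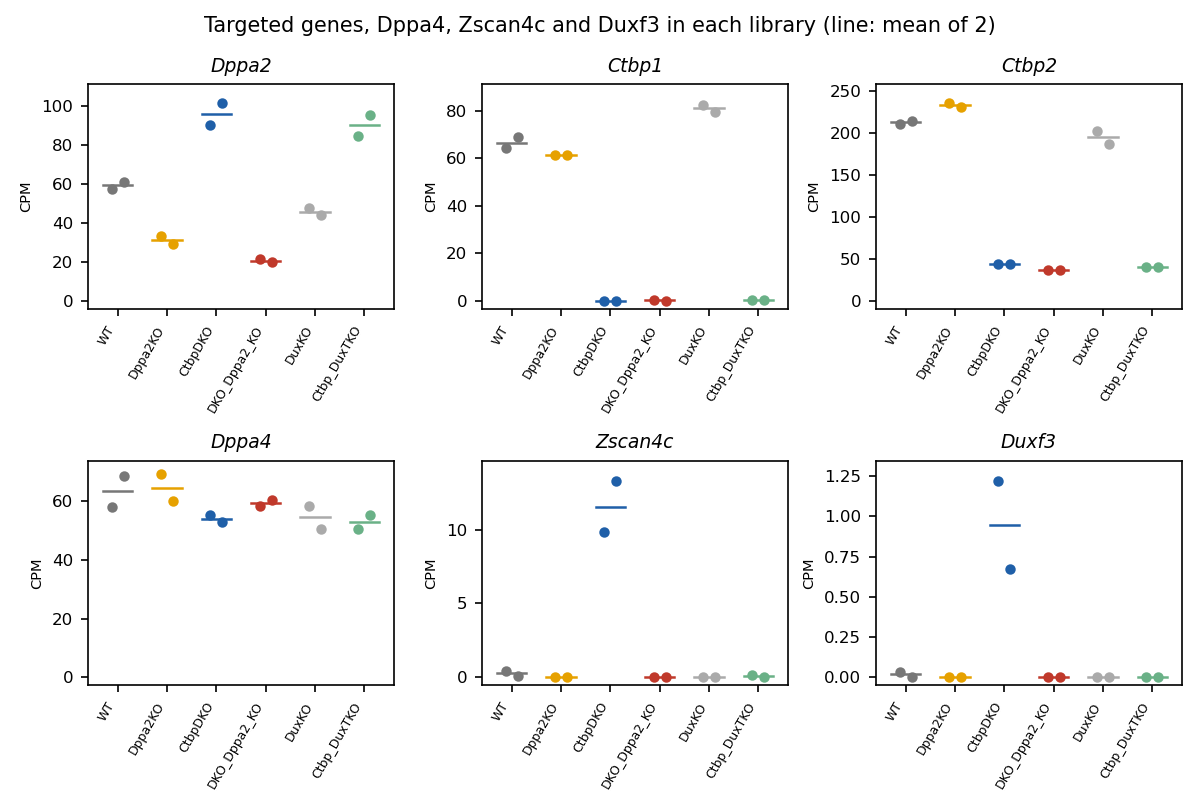
CPM (vertical axes, linear, from 0) of 6 genes in each library of the 6 genotypes. Points are single libraries and lines are means of 2. Dppa2 was lowest in DKO_Dppa2_KO, Ctbp1 and Ctbp2 were low in all 3 genotypes that lack the Ctbp genes, and the CtbpDKO libraries had the highest Zscan4c and Duxf3.

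Total counts were 33345147 and 32606956 in CtbpDKO and 19944644 and 26905147 in DKO_Dppa2_KO. Structural RNA genes took 24.7% and 16.95% of the counts in CtbpDKO and 24.4% and 31.2% in DKO_Dppa2_KO, and replication-dependent histone genes took 5.24% and 5.54% against 7.33% and 7.44%. The summed level of 6 embryonic stem cell markers ran from 1734 to 1790 CPM in CtbpDKO and from 1726 to 1780 CPM in DKO_Dppa2_KO, and none of the 6 was called. Of 12 fibroblast markers, Dcn, Lum, Postn and Twist2 were at 0 counts in all 4 libraries, while others were expressed. The summed level of the 12 ran from 58.54 to 58.56 CPM in CtbpDKO and from 41.9 to 44.5 CPM in DKO_Dppa2_KO. Of the 6 that were tested, 0 were higher and 2 lower. These are bulk libraries, in which fewer cells of a type and less RNA per cell cannot be told apart.

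Across all 21193 genes tested, 1218 were higher in DKO_Dppa2_KO (5.75%) and 2050 were lower (9.67%) at an adjusted p under 0.05, together 15.4%. By fitted value, decreases were the larger changes: 737 of the lower genes (3.48%) but 236 of the higher genes (1.11%) moved at least 2-fold. Fitted values near 0 counts depend on the prior count of the fit. At or under 3 counts in both libraries were 800 genes tested in DKO_Dppa2_KO, the group with fewer total counts, against 185 in CtbpDKO. The 2 groups did not overlap for 1212 of the higher and all 2050 of the lower genes, which is a loose criterion here because 58.1% of all genes tested also had groups that did not overlap. The counts depend on single libraries. Without DKO_Dppa2_KO replicate 2 they were 419 higher and 853 lower, without DKO_Dppa2_KO replicate 1 795 and 1263, without CtbpDKO replicate 1 694 and 1047, and without CtbpDKO replicate 2 473 and 1014.

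**Figure D2:**
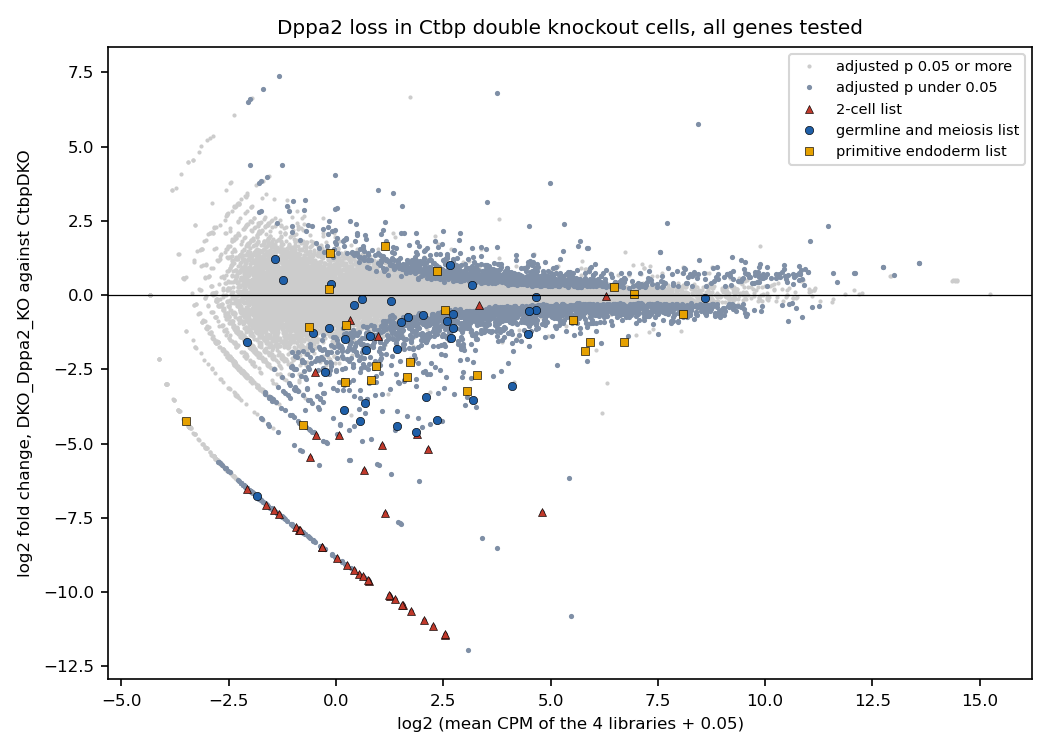
Every gene tested, with the log2 of its mean CPM over the 4 libraries plus 0.05 on the horizontal axis and its fitted log2 fold change on the vertical axis. Red triangles (2-cell list) lie almost all far below 0, blue circles (germline list) and orange squares (primitive endoderm list) lie mostly below 0, and the straight lower edge is formed by genes with 0 counts in both DKO_Dppa2_KO libraries.

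Among the gene lists described here, that of the 2-cell state had the lowest median change. Of the 56 genes on the list, 53 were in the table and 40 had enough counts to be tested, and 34 of these were lower and 0 higher. Because genes this rare pass the count filter mainly through the CtbpDKO libraries, where 0 of the 40 were at or under 3 counts per library, the share of lower genes among those tested is a description and not a test. In DKO_Dppa2_KO, 31 of the 40 had 3 counts or fewer in both libraries. The median log2 fold change of the 40 was −4.27 when each such gene was set to 3 counts, against −0.02 over all genes tested, and list medians are given in the same way throughout. Near-identical copies within these families can share reads, so values of single members are uncertain.

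Zscan4c (chr7:11005745-11010547), a marker of the 2-cell-like state in culture, had 323 and 476 counts in CtbpDKO and 0 in both DKO_Dppa2_KO libraries, at least 83.5-fold lower (adjusted p = 8.05e-05). Zscan4f fell by at least 82.8-fold and Zscan4d, from 88 and 104 counts to 0 and 0, by at least 20.2-fold. Zscan4b, annotated as protein-coding, and Zscan4a and Zscan4e, annotated as pseudogenes, were also at 0 in both DKO_Dppa2_KO libraries. Usp17le, of a family of ubiquitin-specific proteases, fell from 219 and 235 counts to 0 and 0, at least 47.8-fold. The family members Usp17lc (at least 33.4-fold), Usp17ld (at least 21.5-fold) and Usp17la (at least 16.6-fold) were also at 0. DESeq2, a second test of the counts, called 23 genes of the list lower, as against 34 by edgeR. Among those it did not call were Zscan4a (adjusted p = 0.240), Zscan4b (adjusted p = 0.260) and Usp17ld (fitted log2 fold change −8.45). Gm4340, chosen after its values were seen as the list member with the highest CPM among those that fell, had 53.5 and 56.6 CPM in CtbpDKO and 0 and 0.636 CPM in DKO_Dppa2_KO. Eif4a3l1, a relative of a gene for an exon junction RNA helicase, had 249 and 258 counts in CtbpDKO and 2 in each DKO_Dppa2_KO library.

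Some members did not pass the test. Nelfa, which encodes a subunit of a factor that pauses RNA polymerase II, had 74.5 and 82.0 CPM in CtbpDKO and 78.0 and 76.7 CPM in DKO_Dppa2_KO (adjusted p = 0.953). Zfp809, a silencer of retroviral sequences, had a log2 difference of −0.32 (adjusted p = 0.167). Both are well expressed in all groups. Duxbl1 (−1.38, adjusted p = 0.0562), Sp110 (−2.57, adjusted p = 0.0625), Tcstv1 (0 counts in DKO_Dppa2_KO, adjusted p = 0.0519) and Arg2 (−0.82, adjusted p = 0.261) also did not pass. The other 13 members in the table had too few counts to be tested. Pramel7, which encodes a protein known to lower DNA methylation in naive pluripotent cells, fell from 67 and 79 counts to 4 and 6, or 9.14-fold (adjusted p = 0.00572).

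The 2-cell genes were set beside Dux loss in the same background by comparing DKO_Dppa2_KO directly with Ctbp_DuxTKO, 2 groups that share no library. Over all genes this comparison called 2222 genes higher (10.5%) and 2650 lower (12.5%). Among the 40 tested 2-cell genes, 2 were lower in DKO_Dppa2_KO, Duxbl1 (−1.97, adjusted p = 0.00729) and Zfp809 (−0.57, adjusted p = 0.0144), and 0 were higher. At or under 3 counts in both libraries were 26 of the 40 in Ctbp_DuxTKO, as against 31 in DKO_Dppa2_KO. Zscan4c had 3 and 0 counts in Ctbp_DuxTKO, so both knockouts were at or under the floor and no fold is given. Pramel7 stood apart: it had 1.30 and 1.43 CPM in Ctbp_DuxTKO and 0.200 and 0.254 CPM in DKO_Dppa2_KO, 5.88-fold lower (adjusted p = 0.0129).

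Genes of germ cells and meiosis formed the next group. Dppa2 and Dppa4 are known to act at promoters of several of them in embryonic stem cells. Of 40 genes on this list, 38 were tested, 21 were lower and 1 was higher, with a median log2 fold change of −1.10. Over all genes tested, 9.67% were lower and 5.75% higher. Without 1 library at a time the number lower was between 14 and 16.

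Syce1, which encodes a part of the synaptonemal complex that holds paired meiotic chromosomes together, had 9.97 and 9.36 CPM in CtbpDKO and 0.401 and 0.636 CPM in DKO_Dppa2_KO. It fell 18.2-fold (log2 fold change −4.19, SE 0.25, adjusted p = 9.15e-07). Ddx4, the germ cell RNA helicase also called Vasa, fell from 6.07 and 7.66 CPM to 0.3005 and 0.254 CPM, or 24.6-fold (adjusted p = 1.58e-06). Mael, a gene of the pathway that silences transposons in germ cells, had 8.36 and 7.04 CPM and then 0.751 and 0.678 CPM, a 10.7-fold decrease (adjusted p = 7.23e-06). All 3 genes kept reads in both DKO_Dppa2_KO libraries, and the groups lay far apart. Mov10l1, a helicase of the same silencing pathway, fell from 16.5 and 17.1 CPM to 1.45 and 1.44 CPM (11.6-fold, adjusted p = 1.31e-07). Rpl10l, a testis-expressed copy of a ribosomal protein gene, fell from 32.5 and 28.6 CPM to 3.41 and 3.94 CPM (8.28-fold, adjusted p = 7.51e-08). Fkbp6 fell 21.4-fold, Dazl, a germ cell RNA-binding protein, 18.97-fold and Tex11 12.3-fold.

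Members outside this pattern included Hormad2, a meiotic chromosome axis gene, which rose from 4.76 and 3.52 CPM to 7.71 and 9.15 CPM (2.04-fold, adjusted p = 0.0106). It did not pass without CtbpDKO replicate 2 (adjusted p = 0.106) or DKO_Dppa2_KO replicate 2 (adjusted p = 0.0990). Stra8, which prepares germ cells for meiosis, had 30.5 and 22.7 CPM in CtbpDKO and 19.3 and 17.9 CPM in DKO_Dppa2_KO, and its log2 difference of −0.52 was just short of the threshold (adjusted p = 0.05001). It was named after its values were seen, for its interaction with the background. Zfp42, a pluripotency gene that spermatocytes also express, had a log2 difference of −0.08 (adjusted p = 0.635). Hand1, a trophoblast and heart transcription factor gene listed among known Dppa2 and Dppa4 targets, fell from 3.84 and 3.60 CPM to 0.351 and 0.381 CPM (10.1-fold, adjusted p = 0.00759). Nkx2-5, another target and a heart transcription factor gene, went from 16 and 17 counts to 0 and 0. Without DKO_Dppa2_KO replicate 2, Hand1 did not pass (log2 fold change −3.40, adjusted p = 0.0596).

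Imprinted genes of the Dlk1-Dio3 cluster on chromosome 12 fell after Dppa2 loss in both backgrounds, from different levels. Maternally expressed non-coding RNAs of this cluster are known to be sensitive to DNA methylation in embryonic stem cells. In CtbpDKO 5 of its 6 listed genes were lower after Dppa2 loss, with a median log2 fold change of −2.58, and 0 were higher. In Dppa2KO against WT, 5 of the 6 were also lower, where 8.69% of all genes were. Meg3 (chr12:109540996-109571729) had 1.95 and 1.90 CPM in CtbpDKO and 0.3005 and 0.127 CPM in DKO_Dppa2_KO, a 9.13-fold decrease (adjusted p = 6.35e-05). In WT it had 17.9 and 20.02 CPM and in Dppa2KO 0 counts in both libraries, at least 226-fold lower. Rian fell from 4.64 and 4.86 CPM to 0.551 and 0.678 CPM (7.63-fold, adjusted p = 1.51e-06) and Mirg 4.53-fold (adjusted p = 0.00264). Rtl1, the paternally expressed retrotransposon-derived gene of the cluster, had 37 and 35 counts in CtbpDKO and 0 in both DKO_Dppa2_KO libraries, at least 7.59-fold lower. Dlk1, a Notch pathway ligand gene, fell 4.68-fold. It passed without CtbpDKO replicate 2 but not without any other 1 of the 4 libraries (adjusted p up to 0.0746). Dio3, which inactivates thyroid hormone, had a log2 difference of −0.37 that did not pass.

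Several of these RNAs were already lower in CtbpDKO than in WT, with log2 fold changes of −3.30 for Meg3 (adjusted p = 6.05e-08) and −3.16 for Rian (adjusted p = 4.07e-09). Rian was at 41.1 and 43.6 CPM in WT, 4.64 and 4.86 CPM in CtbpDKO and 21.8 and 21.5 CPM in Ctbp_DuxTKO. Against Ctbp_DuxTKO, 5 of the 6 genes were lower in DKO_Dppa2_KO, where 12.5% of all genes were. Rian was 34.7-fold and Meg3 43.6-fold lower. Elsewhere among 38 tested imprinted genes, 13 were lower and 1 higher, with a median of −0.36, where 9.67% and 5.75% of all genes were. Grb10, a growth-restraining adaptor gene, fell from 34.3 and 34.4 CPM to 9.97 and 10.8 CPM (3.31-fold, adjusted p = 1.31e-07) and had 345 and 337 CPM in WT. H19, a non-coding RNA, fell from 16.5 and 10.5 CPM to 3.00 and 3.01 CPM (4.47-fold, adjusted p = 6.26e-05). Igf2, its paternally expressed neighbour, fell 2.62-fold, and Sgce, a sarcoglycan gene, rose 2.00-fold. Sgce did not pass without CtbpDKO replicate 1 (adjusted p = 0.0660).

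The effect of Dppa2 loss was then compared between backgrounds as the difference of differences, DKO_Dppa2_KO minus CtbpDKO against Dppa2KO minus WT, which use 8 libraries in all. This interaction was positive for 685 genes (3.23%) and negative for 1060 (5%). For reference, Dppa2KO against WT had 1626 genes higher (7.67%) and 1841 lower (8.69%). Leaving out 1 library at a time gave 310 to 482 positive and 463 to 828 negative interactions.

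Several germline genes fell less after Dppa2 loss in the Ctbp double knockout than in the WT background. Syce1 was at 4.29 and 3.68 CPM in WT and at 0 counts in both Dppa2KO libraries, at least 47.6-fold lower, against 18.2-fold in the Ctbp double knockout (interaction adjusted p = 0.00393). Ddx4 was at 4.90 and 4.27 CPM in WT and at 0 in Dppa2KO, at least 54.7-fold lower, against 24.6-fold (interaction adjusted p = 0.00810). Rpl10l fell 22.8-fold in the WT background and 8.28-fold in the Ctbp double knockout (interaction 1.46, adjusted p = 0.00216). Of the 38 tested germline genes, 5 had a positive and 2 a negative interaction, where 3.23% and 5% of all genes did. For Dazl the 2 effects did not differ beyond error (interaction 0.45, adjusted p = 0.835). Stra8 had the opposite pattern: it was at 2.52 and 1.76 CPM in WT and at 8.23 and 9.08 CPM in Dppa2KO, and its interaction was −2.53 (adjusted p = 0.000147).

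Positive interactions were largest for Meg3 (8.95), Trim67 (8.93), Mirg (7.0), Rtl8b (5.93) and Ctcfl (5.76). A group at or near 0 counts sets these fitted values, so they give a direction and not a size. Trim67, a ubiquitin ligase gene of neurons, had 1.14 and 2.35 CPM in WT, 1 and 0 counts in Dppa2KO, 0.0915 and 0.196 CPM in CtbpDKO, and 0.601 and 0.890 CPM in DKO_Dppa2_KO. It thus rose in one background (adjusted p = 0.0299) and fell in the other (adjusted p = 0.000322). Its rise did not pass without CtbpDKO replicate 1 (adjusted p = 0.160), CtbpDKO replicate 2 (adjusted p = 0.0732) or DKO_Dppa2_KO replicate 2 (adjusted p = 0.176). Ctcfl, the testis paralogue of the insulator protein CTCF, fell 2.91-fold in the Ctbp double knockout and at least 7.87-fold in WT. In the Ctbp double knockout its decrease did not pass without any 1 of the 4 libraries (adjusted p from 0.0542 to 0.157). Ctcfl and Rtl8b had 0 or 1 count per Dppa2KO library.

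Negative interactions were largest for Zscan4b (−13.57), Slc1a1 (−5.75), Eif4a3l1 (−5.08), Bhmt (−3.90) and Klb (−3.58). Zscan4b had counts only near 0 outside CtbpDKO, and DESeq2 did not call its interaction (adjusted p = 0.347). Slc1a1, a glutamate transporter gene, had 19.3 and 24.4 CPM in CtbpDKO and 3.31 and 11.1 CPM in DKO_Dppa2_KO, a difference that did not pass (adjusted p = 0.134). It was called lower with the replicate number as a block (−1.79, adjusted p = 0.0394) and when CtbpDKO and DKO_Dppa2_KO were fitted alone (adjusted p = 0.0310). With no count filter it was also called (adjusted p = 4.91e-18). Its log2 fold change there was −1.58, as in the main fit, so only the estimate of its spread differed. In the WT background Slc1a1 rose from 0.403 and 1.43 CPM in WT to 17.8 and 15.7 CPM in Dppa2KO (adjusted p = 0.00473). Bhmt, an enzyme of methionine synthesis, fell 3.33-fold in the Ctbp double knockout (adjusted p = 0.0139) and rose 4.48-fold in the WT background (adjusted p = 0.0239). Klb, a co-receptor for endocrine FGFs, fell from 1.77 and 2.12 CPM to 0.100 and 0.0848 CPM. The interaction of Eif4a3l1 was not called without Dppa2KO replicate 2 (−1.27, adjusted p = 0.904). With both replicates of each group kept, it was not called with the replicate number as a block (adjusted p = 0.0581) or when the 4 groups of the interaction were fitted alone (adjusted p = 0.0600). It also missed the threshold without WT replicate 2 or any 1 of the CtbpDKO and DKO_Dppa2_KO libraries (adjusted p from 0.0746 to 0.0949), and the Zscan4b interaction did so without WT, Dppa2KO or CtbpDKO replicate 2 (adjusted p from 0.0512 to 1). The Klb interaction missed it without any 1 of 5 libraries (adjusted p from 0.0590 to 0.0944), and the decrease of Bhmt without any 1 of its 4 (adjusted p from 0.0596 to 0.0865).

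Some epithelial genes stood higher in CtbpDKO than in WT and did not pass the test after Dppa2 loss. Misp, Lamb3 and Krt19 were chosen after their values were seen, for their interaction. Misp, an actin-binding spindle protein gene, had 8.51 and 8.72 CPM in CtbpDKO and 7.66 and 8.26 CPM in DKO_Dppa2_KO (log2 difference −0.11, not passed), against 0.268 and 0.196 CPM in WT and 0 counts in Dppa2KO. Lamb3, a laminin chain of epithelial basement membranes, had 8.66 and 7.04 CPM and then 7.06 and 5.21 CPM, against 0.939 and 0.522 CPM in WT and 0.0275 and 0 CPM in Dppa2KO. Krt19, a keratin gene, had 4.15 and 3.21 CPM and then 5.36 and 7.42 CPM (adjusted p = 0.0715), against 1.14 and 0.782 CPM in WT and 0.0551 and 0.142 CPM in Dppa2KO. Interaction values were 5.69 (adjusted p = 0.00655), 4.98 (adjusted p = 0.00252) and 4.04 (adjusted p = 0.00152), in that order. Among the 32 tested genes of the epithelial list, 2 were higher and 10 lower in DKO_Dppa2_KO, with a median of −0.32. The shares over all genes tested were 5.75% higher and 9.67% lower. Perp, a desmosome gene and p53 target, rose from 4.03 and 4.86 CPM to 12.3 and 14.6 CPM (3.02-fold, adjusted p = 6.06e-05), while the tight junction genes Cldn3 (2.63-fold) and Ocln (2.49-fold) fell. Ocln did not pass without CtbpDKO replicate 2 (adjusted p = 0.176) or DKO_Dppa2_KO replicate 1 (adjusted p = 0.159).

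**Figure D3:**
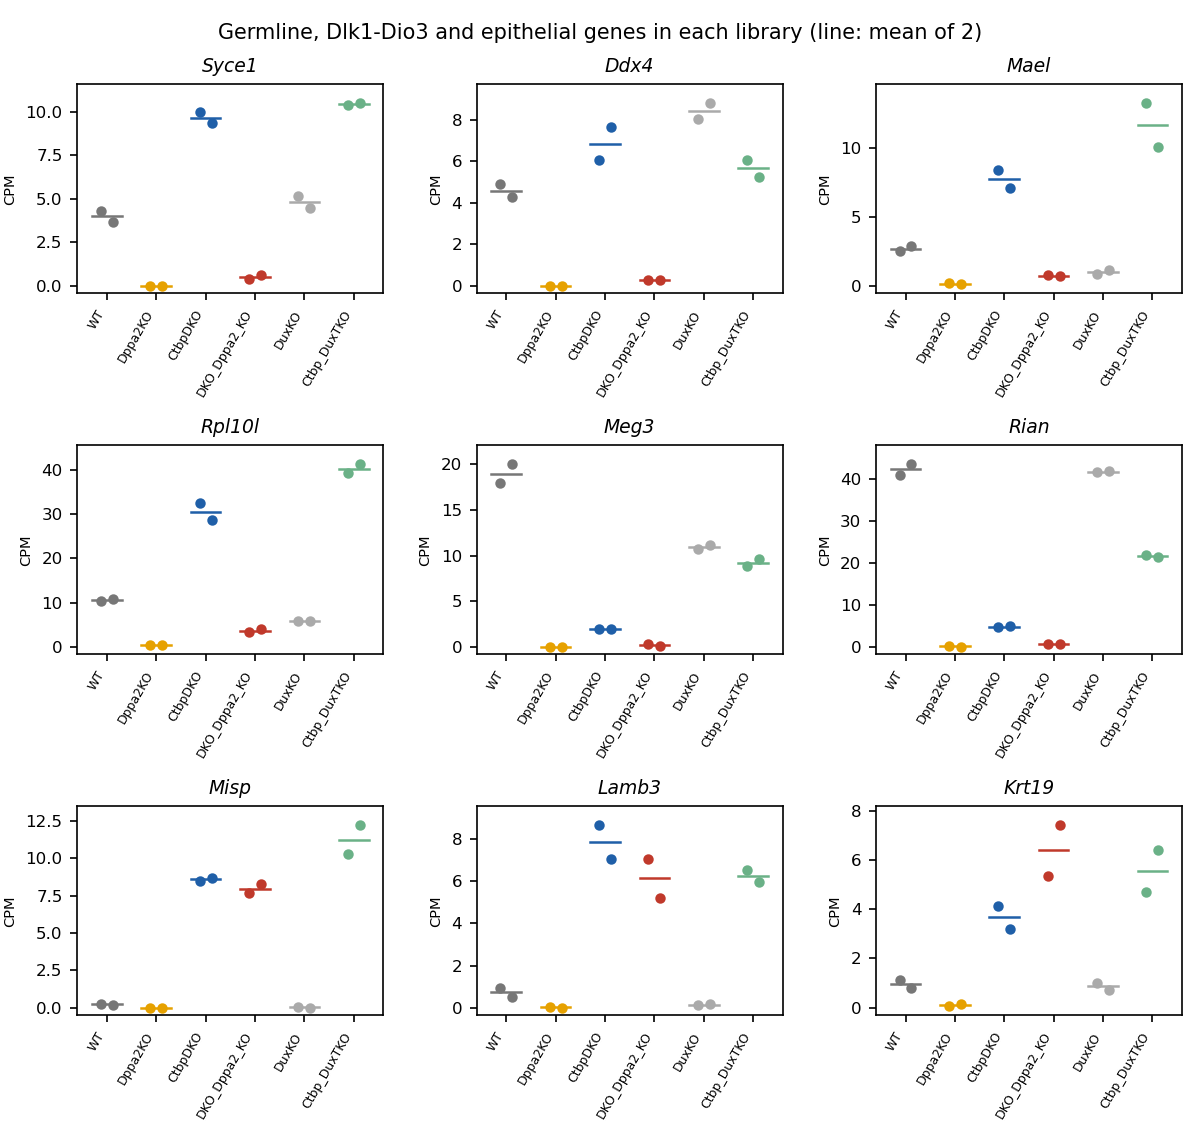
CPM (vertical axes, linear, from 0) of germline genes (Syce1, Ddx4, Mael, Rpl10l), Dlk1-Dio3 genes (Meg3, Rian) and epithelial genes (Misp, Lamb3, Krt19) in each library. Points are libraries and lines are means of 2. Germline genes were near 0 in Dppa2KO and slightly higher in DKO_Dppa2_KO, Meg3 and Rian were already low in CtbpDKO, and the epithelial genes had similar ranges in CtbpDKO, DKO_Dppa2_KO and Ctbp_DuxTKO.

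Genes of primitive endoderm, the extraembryonic lineage that forms beside the epiblast, were lower after Dppa2 loss. Of 23 tested genes, 14 were lower and 1 higher, with a median log2 fold change of −1.08, where 9.67% and 5.75% of all genes were. Pdgfra, a growth factor receptor that marks the lineage, fell from 5.76 and 5.06 CPM to 0.852 and 0.763 CPM (6.69-fold, adjusted p = 1.24e-05). Its regulator Gata6 fell from 4.36 and 6.37 CPM to 1.202 and 1.06 CPM (4.75-fold, adjusted p = 0.000876), and Sox17 fell 5.19-fold. Gata4 fell from 6.74 and 6.73 CPM to 5.01 and 4.45 CPM (adjusted p = 0.0478). Basement membrane genes of the lineage fell too, Lama1 from 90.7 and 85.1 CPM to 24.3 and 23.5 CPM (3.68-fold, adjusted p = 8.17e-07) and Col4a1 from 168 and 144 CPM to 55.5 and 49.8 CPM (2.96-fold, adjusted p = 1.73e-05). Cubn, an endocytic receptor of this epithelium, fell 9.25-fold and its partner Amn 7.34-fold. Hnf4a, a regulator of visceral endoderm, rose from 0.824 and 1.23 CPM to 2.55 and 3.98 CPM (adjusted p = 0.0225). Hnf4a passed with all libraries and without DKO_Dppa2_KO replicate 1, but not without the others (adjusted p up to 0.179). Amn did not pass without CtbpDKO replicate 1 (adjusted p = 0.0731) or DKO_Dppa2_KO replicate 1 (adjusted p = 0.0513).

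The summed level of 7 primitive endoderm markers ran from 38.5 to 40.7 CPM in CtbpDKO and from 10.7 to 11.3 CPM in DKO_Dppa2_KO, with 5 of the 7 lower. These genes were higher still in Ctbp_DuxTKO, where Pdgfra and Cubn stood 17.7-fold and 68.8-fold above DKO_Dppa2_KO. In that comparison 18 of the 23 tested were lower in DKO_Dppa2_KO, where 12.5% of all genes were. The list also held decreases in the WT background. In Dppa2KO against WT, 7 of the 23 were lower and 1 higher, where 8.69% and 7.67% of all genes were. Interactions with the background were negative for 7 and positive for 1, where 5% and 3.23% of all genes were. Pdgfra was not among the 7 lower in Dppa2KO. It differed 1.03-fold between Dppa2KO and WT, and its interaction was −2.78 (adjusted p = 0.000250). The part of such cells in other decreases was not tested.

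Glycolysis genes were the list in which the WT background and the Ctbp double knockout differed for most members. Of 24 tested genes, 14 were higher and 0 lower in Dppa2KO than in WT, where 7.67% and 8.69% of all genes were. In DKO_Dppa2_KO against CtbpDKO, 4 were higher and 7 lower, where 5.75% and 9.67% of all genes were. Interactions were negative for 13 and positive for 0, where 5% and 3.23% of all genes were. Slc2a1, the main glucose transporter gene of these cells, rose from 176 and 171 CPM to 281 and 286 CPM in the Ctbp double knockout (1.63-fold) and 2.32-fold in the WT background, and its interaction was −0.51 (adjusted p = 0.0169). Slc16a3, a lactate exporter gene, rose 1.68-fold. Hk1, the first enzyme of the pathway, fell 1.59-fold, Pfkm, a subunit of phosphofructokinase, 1.48-fold and the enolase gene Eno1 1.27-fold. Eno1 passed without CtbpDKO replicate 2 but not without the other libraries (adjusted p up to 0.180). The Slc2a1 interaction missed the threshold without replicate 1 of any of the 4 genotypes (adjusted p from 0.0502 to 0.0750). The median log2 fold change of the list was −0.13 in the Ctbp double knockout and 0.44 in the WT background.

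**Figure D4:**
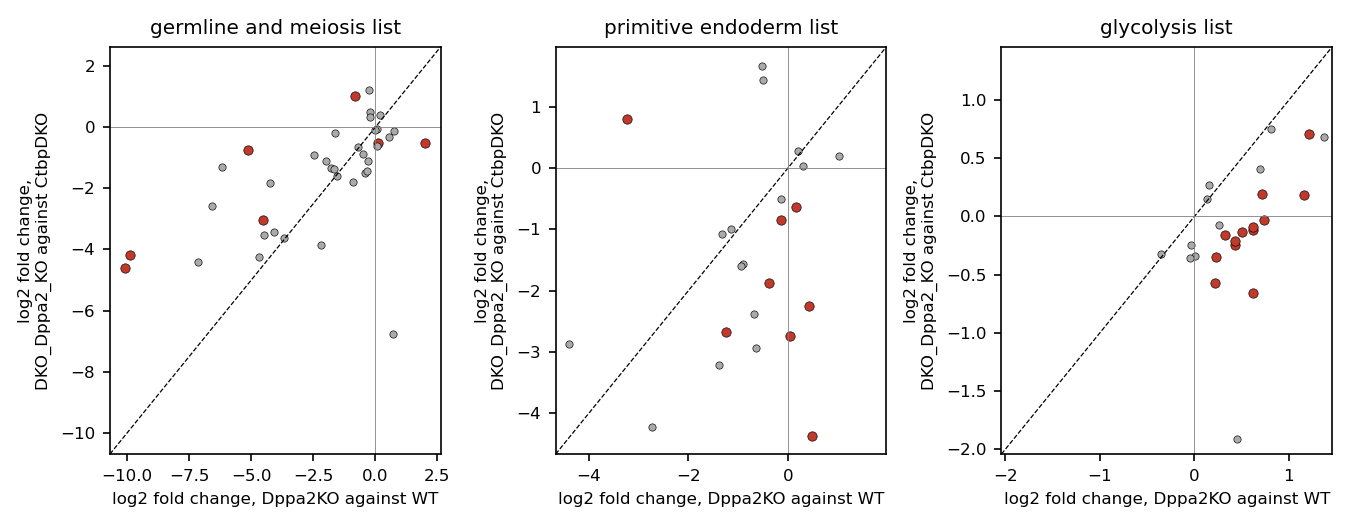
Fitted log2 fold change after Dppa2 loss in the WT background (horizontal axis) and in Ctbp double knockout cells (vertical axis) for 3 gene lists. Each point is a gene, red marks an interaction with an adjusted p under 0.05, and the dashed line marks equal change. Germline points with large decreases lie mostly above the line, primitive endoderm points mostly below it, and most glycolysis points lie right of 0 and below the line.

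The DNA methyltransferase genes Dnmt1, Dnmt3a and Dnmt3b and the cofactor gene Uhrf1 were lower, while the cofactor gene Dnmt3l was higher. Dnmt1, which copies methylation at replication, fell from 378 and 373 CPM to 243 and 224 CPM (1.61-fold, log2 fold change −0.68, SE 0.09, adjusted p = 0.000461). Uhrf1, which brings DNMT1 to replicated DNA, fell from 522 and 509 CPM to 416 and 400 CPM (1.26-fold, adjusted p = 0.0144). Of the de novo enzymes, Dnmt3a fell from 196 and 184 CPM to 117 and 117 CPM (1.62-fold, adjusted p = 0.000156) and Dnmt3b from 272 and 275 CPM to 225 and 218 CPM (1.23-fold, adjusted p = 0.0353). Dnmt3l, a cofactor without catalytic activity, rose from 197 and 190 CPM to 346 and 375 CPM (1.86-fold, adjusted p = 2.79e-05). In each of these genes both DKO_Dppa2_KO libraries lay on the same side of both CtbpDKO libraries. This also held for 58.1% of all genes tested, so it adds little to the calls.

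The oxidising enzymes fell as well. Tet1 went from 468 and 495 CPM to 327 and 277 CPM (1.60-fold, adjusted p = 0.00630), Tet2 had a log2 fold change of −0.49 (adjusted p = 0.00645) and Tet3 of −0.76 (adjusted p = 0.00182). In all, 7 of the 12 listed genes were lower, 1 was higher, and none changed 2-fold. Over all genes tested, 9.67% were lower and 5.75% higher. The calls in this list are sensitive to single libraries: 3 genes were lower without DKO_Dppa2_KO replicate 2 and 4 without CtbpDKO replicate 2. Dnmt3b missed the threshold without any 1 of the 4 libraries (adjusted p from 0.0981 to 0.179), Uhrf1 without each except DKO_Dppa2_KO replicate 1 (adjusted p up to 0.103), and Tet1 without DKO_Dppa2_KO replicate 2 (adjusted p = 0.0712). Tdg, Zfp57, Uhrf2 and Usp7 did not pass in the comparison with all libraries. In the WT background 1 gene was higher and 1 lower, where 7.67% and 8.69% of all genes were. The effects on Dnmt1 (interaction −0.57, adjusted p = 0.0190), Uhrf1 (−0.42, adjusted p = 0.0402), Dnmt3a (−1.0, adjusted p = 0.000356) and Dnmt3l (0.90, adjusted p = 0.000844) differed between backgrounds. Dnmt3b had 81.6 and 90.2 CPM in WT and Dnmt3l 66.5 and 61.6 CPM, so both remained above WT in DKO_Dppa2_KO.

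**Figure D5:**
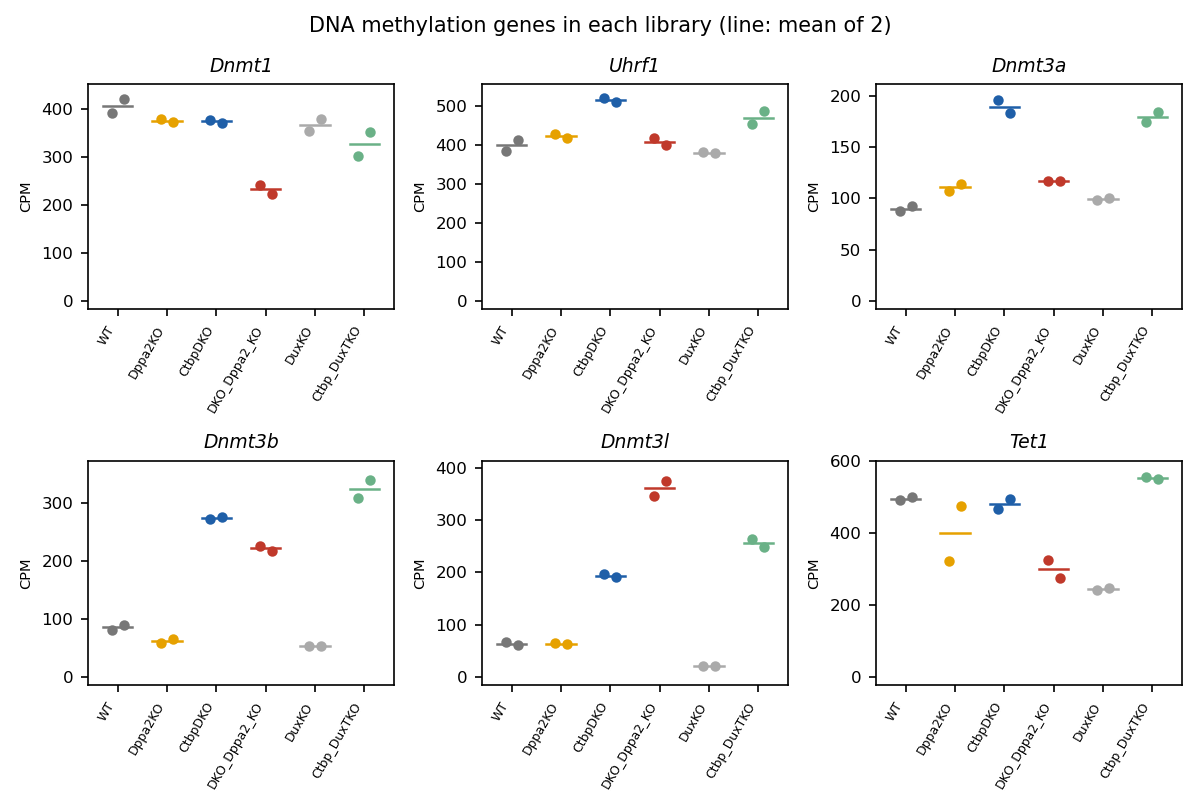
CPM (vertical axes, linear, from 0) of 6 DNA methylation genes in each library, with lines at the mean of 2. Dnmt1 was lowest in DKO_Dppa2_KO (243 and 224 CPM), Dnmt3l was highest there (346 and 375 CPM), and Dnmt3b and Dnmt3l were higher in the 3 genotypes that lack the Ctbp genes than in the other 3.

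Naive pluripotency genes moved little. Among 18 tested genes, 1 was higher (Klf2, 1.34-fold) and 3 lower (Fgf4, 1.33-fold, Klf5, 1.32-fold, and Nr0b1, 1.202-fold), with a median of −0.08. Nr0b1 missed the threshold without any 1 of the 4 libraries (adjusted p from 0.142 to 0.172), Klf5 without CtbpDKO replicate 1 (adjusted p = 0.0693) or DKO_Dppa2_KO replicate 2 (adjusted p = 0.0617) and Fgf4 without CtbpDKO replicate 1 (adjusted p = 0.0570). Pou5f1 had a log2 difference of 0.11 (adjusted p = 0.514) and Nanog of −0.07 (adjusted p = 0.610). Formative and primed genes gave 3 higher and 5 lower of 17. Zic2, an early neural and formative transcription factor gene, rose from 15.1 and 12.9 CPM to 32.1 and 28.7 CPM (2.17-fold, adjusted p = 0.000318), and Foxd3 fell 1.61-fold. Of 21 trophoblast genes, 2 were higher, Gata3 (2.37-fold) and Tfap2c (11.3 and 10.9 CPM to 25.0 and 25.5 CPM, adjusted p = 3.82e-05), and 5 were lower, Hand1 and H19 among them. Of 10 neural genes, 4 were higher, including Pax6 (1.82-fold) and Sox1 (1.55-fold), and 2 were lower, Nes (2.71-fold) and Tubb3 (1.47-fold). Pax6 did not pass without CtbpDKO replicate 1 (adjusted p = 0.0553) or DKO_Dppa2_KO replicate 2 (adjusted p = 0.109), nor Gata3 without CtbpDKO replicate 2 (adjusted p = 0.0532). Of 17 mesoderm and gut endoderm genes, 0 were higher and 2 lower. The counts of these lists stand beside 5.75% higher and 9.67% lower over all genes tested. In lists this short, counts of a few genes can lie near those shares.

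The genes with the largest increases had low to moderate levels. Ttc23, a gene of the primary cilium, rose from 0.488 and 0.335 CPM to 5.61 and 3.35 CPM (10.8-fold), which compares with 4.496 and 4.53 CPM in WT. Its interaction was 3.32 (adjusted p = 0.000355), and in Ctbp_DuxTKO it was as low as in CtbpDKO, at 0.520 and 0.611 CPM. Wls, which carries Wnt proteins to the cell surface, rose from 0.488 and 0.810 CPM to 3.31 and 3.98 CPM (5.56-fold, adjusted p = 0.000820). Lrp8os2, an antisense transcript, rose 7.996-fold. Lncenc1, a non-coding RNA of naive embryonic stem cells, rose from 20.1 and 24.9 CPM to 84.0 and 76.4 CPM (3.56-fold, adjusted p = 2.79e-05). Anxa8 (4.49-fold), Pnma5 (4.23-fold), Brsk2 (4.06-fold), Pla2g1b (3.73-fold), Tfpi (3.61-fold), Tmc4 (3.55-fold) and Arl14epl (3.51-fold) completed this set with Bc1, a small non-coding RNA. Bc1 had 3.81 and 0.894 CPM and then 11.4 and 29.8 CPM, and it was not called without DKO_Dppa2_KO replicate 2 (adjusted p = 0.0659). Arl14epl missed the threshold without any 1 of the 4 libraries (adjusted p up to 0.145), Brsk2 without each except DKO_Dppa2_KO replicate 2 (adjusted p up to 0.109), and Pla2g1b without CtbpDKO replicate 2 (adjusted p = 0.121) or DKO_Dppa2_KO replicate 1 (adjusted p = 0.103).

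Among abundant genes, Trim17, a ubiquitin ligase gene, rose from 29.4 and 28.9 CPM to 81.3 and 93.6 CPM (3.00-fold, adjusted p = 8.17e-07). Its WT level was 135 and 148 CPM, so the increase was towards WT. The splicing factor gene Rbm4 rose 2.06-fold, and the histone genes Hist1h2ao, H2ac11 and H2ac10 rose 2.07-fold, 2.19-fold and 2.30-fold, each with a much higher value in DKO_Dppa2_KO replicate 2. Hist1h2ao was not called without that library (log2 difference 0.25, adjusted p = 0.470) or without CtbpDKO replicate 2 (adjusted p = 0.211), nor H2ac10 without CtbpDKO replicate 1 (adjusted p = 0.0601). Of the abundant genes that fell, Map1b, a microtubule-binding protein gene, went from 258 and 264 CPM to 109.8 and 100.1 CPM (2.48-fold, adjusted p = 2.27e-05). Isyna1, which makes inositol phosphate from glucose phosphate, fell from 164 and 160 CPM to 58.9 and 65.2 CPM (2.60-fold, adjusted p = 1.34e-06). Slc38a1, a glutamine transporter gene, fell from 109 and 109 CPM to 36.6 and 34.9 CPM (3.05-fold, adjusted p = 1.31e-07), from 259 and 265 CPM in WT. Lrp2, an endocytic receptor gene, fell 2.00-fold.

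Directly against Ctbp_DuxTKO, the largest increases in DKO_Dppa2_KO were Bc1 (21.1-fold), Ttc23 (7.77-fold), Lrfn3 (7.12-fold), Ggt7 (5.09-fold) and Pla2g1b (4.79-fold). By fitted value, which depends on the prior count, the largest decreases among the genes eligible for naming had 0 counts in both DKO_Dppa2_KO libraries. They were Rtl1 (at least 32.6-fold), Hkdc1 (at least 30.0-fold), Habp2 (at least 23.4-fold), Clca3b (at least 21.3-fold) and Tcf23 (at least 18.6-fold). These bounds are below the 68.8-fold decrease of Cubn, which kept reads, and so give no order of size. Over all genes tested, 12.5% were lower and 10.5% higher in DKO_Dppa2_KO than in Ctbp_DuxTKO. Of the 38 germline genes, 19 were lower and 3 higher in this comparison. Syce1 was 19.7-fold and Ddx4 20.2-fold lower than in Ctbp_DuxTKO. DNA methylation genes gave 7 lower and 1 higher of 12, with Dnmt1 1.40-fold lower and Dnmt3l 1.41-fold higher.

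Promoter composition was described for the genes called. CpG frequency is given as the observed number over that expected from the base composition of the window. Its median was 0.73 over all 12523 promoters, 0.76 over 1306 promoters of genes called lower and 0.74 over 870 of genes called higher. It was 0.55 over 406 promoters of genes at least 2-fold lower and 0.62 over 139 of genes at least 2-fold higher. The lower 2-cell genes were poor in CpG (median 0.15, 14 of 34 genes with a promoter), while the lower germline genes were not (median 0.70, 17 of 21). The Zscan4c promoter had a ratio of 0.24, Meg3 0.60, Syce1 0.62 and Ddx4 0.98. The motif GATTNNATC, searched on both strands, was found in 8 of the 14 lower 2-cell promoters, including Duxf3, Zscan4b, Zscan4c, Zscan4d and Zscan4f, and in 1.1% of all tested promoters. These families share sequence, so the 8 are not independent. The motif was found in 0 of the 17 lower germline promoters, a set too small to tell from the 1.1% of all tested promoters. A match describes the letters in this window only.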

How the data were processed

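The deposited genotype table holds raw read counts per gene symbol, 55276 genes in 12 libraries. Per the submitters' processing notes, Trim Galore, HISAT2, featureCounts and mm10 were used by the authors, with no versions given. Per the labels' protocols, total RNA went into a stranded Collibri kit. Overlapping genes and near-identical copies can share reads. All columns matched a labelled sample (0 unmatched). The bisulfite, Pramel7 and time course tables were not analysed here.

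Counts were tested with the quasi-likelihood F test of edgeR 4.0.16 in R 4.3.3 (filterByExpr, TMM factors from 0.878 to 1.099, 21193 genes, all 12 libraries in 1 fit with group as the only term). A gene was called at a Benjamini-Hochberg adjusted p under 0.05 over all genes. Fitted fold changes use a prior count of 0.125. A fold against a group with at most 3 counts per library is a lower bound against 3 counts per library, for counting error only. The fitting code was tested on simulated counts.

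Named were the targeted genes, fixed genes of interest and, in each direction, the called genes with the strongest change (at most 12; separate groups, a mean of 50 counts or more in the higher group, no predicted or structural symbol), at most 5 abundant ones with a 2-fold change, and at most 4 called members of each list. Up to 5 genes per direction were named for the interaction and for the comparison with Ctbp_DuxTKO. For the interaction, groups had to be separate in the background with the larger change. Other genes were chosen after their values were seen. The members and lists were chosen with earlier results of these data known.

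Replicate numbers did not pair the libraries (correlations of deviations from −0.37 to 0.17 over pairs of groups). Replicates differed by more than counting error, with chi-square over degrees of freedom from 20.0 to 49.4.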

Additional observations from a re-analysis of the deposited data

Results flagged for a closer look

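The effect of Dppa2 loss differed between Ctbp double knockout and WT cells, by the test of the interaction itself, for 685 genes in the positive and 1060 in the negative direction. Positive values mean a higher change in the Ctbp double knockout. Among named genes the interaction on the log2 scale was 8.95 for Meg3, 8.93 for Trim67, 7.0 for Mirg, 5.93 for Rtl8b, 5.76 for Ctcfl, 5.70 for Syce1, 5.69 for Misp, 5.58 for Rian, 5.47 for Ddx4, 4.98 for Lamb3, 4.04 for Krt19, 3.32 for Ttc23 and 0.90 for Dnmt3l. It was −0.42 for Uhrf1, −0.51 for Slc2a1, −0.57 for Dnmt1, −1.0 for Dnmt3a, −1.30 for Dppa2 itself, −2.53 for Stra8, −2.78 for Pdgfra, −3.58 for Klb, −3.90 for Bhmt, −5.08 for Eif4a3l1, −5.75 for Slc1a1 and −13.57 for Zscan4b. Values above 5 in either direction mostly rest on a group with few or 0 counts, so their size depends on the prior count of the fit. Groups of 2 libraries are too small for a check of single libraries that stand apart.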

How the results depend on the processing

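Requiring a 2-fold change besides the adjusted p left 236 genes higher and 737 lower for Dppa2 loss in CtbpDKO, 346 and 363 for the interaction, 310 and 1187 against Ctbp_DuxTKO, and 0 lower DNA methylation genes. Leaving out 1 library at a time gave, for Dppa2 loss in CtbpDKO, 419 to 795 genes higher, 853 to 1263 lower, 23 to 26 lower 2-cell genes, 14 to 16 lower germline genes and 3 to 6 lower DNA methylation genes. It gave 310 to 482 and 463 to 828 genes for the interaction, lowest without WT replicate 2, and 1026 to 1796 and 1326 to 1963 against Ctbp_DuxTKO. A lone library left in a group is assumed there to vary like the other groups. DESeq2, other scaling factors, other count filters, removal of structural RNA genes and a fit of only the groups compared kept these counts within 1.5 times. DESeq2 gave 1182 higher and 1948 lower for Dppa2 loss in CtbpDKO, with 23 lower 2-cell genes as against 34. Of 158 genes with values for that comparison, none that was called reversed, and 58 lost their call in at least 1 alternative, mostly on leaving out a library. For the interaction, the median change of chromosomes 8, Y and MT stood apart from that of all genes. Without their 988 genes, 589 interactions were positive and 976 negative. Trim67 lies on chromosome 8. For Dppa2 loss in CtbpDKO, Y and MT stood apart, with 5 of 11 Y genes lower. Without these 13 genes, 1219 were higher and 2049 lower. Why these chromosomes stood apart was not tested.

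With the replicate number as a block, 1050 genes were higher and 1779 lower for Dppa2 loss in CtbpDKO, with 33 lower 2-cell genes, 20 germline genes and 7 DNA methylation genes. The interaction then had 539 and 815 genes, and the comparison with Ctbp_DuxTKO 1977 and 2433. The numbers mark no stated pairing, and the deviations of CtbpDKO and DKO_Dppa2_KO with the same number correlated at −0.08 over 11558 genes.

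With 2 libraries per group, precision rests on a spread shared over the 12 libraries. DKO_Dppa2_KO replicate 1 was the shallowest, so genes at 0 there are limited by depth to under 3 counts in 19944644.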

Other observations

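Replication-dependent histone genes, a list chosen after values were seen, were mostly higher after Dppa2 loss in the Ctbp double knockout. These genes are transcribed in S phase and their messages lack the usual poly(A) tail. Of 65 tested, 56 were higher and 1 was lower, where 5.75% and 9.67% of all genes were. The list had a median log2 fold change of 0.62, and 3 members were 2-fold higher. Without DKO_Dppa2_KO replicate 2 the number higher was 38, and without DKO_Dppa2_KO replicate 1 it was 57. In Dppa2KO against WT, 0 were higher and 1 was lower, where 7.67% and 8.69% of all genes were. The interaction was positive for 29 of the 65 and negative for 0, where 3.23% and 5% of all genes were. H2ac1, a testis-specific H2A gene and the one named here after its values were seen, fell from 13.5 and 16.7 CPM to 1.25 and 1.53 CPM (adjusted p = 4.65e-06). Structural RNA also took a larger share of DKO_Dppa2_KO replicate 2 (31.2%) than of the other 3 libraries, and with the structural RNA genes removed from the counts the number of higher histone genes was 57.

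Of 23 tested p53 targets, 9 were higher and 1 lower, with a median of 0.32. For this and the following lists, 5.75% of all genes tested were higher and 9.67% lower. Perp rose 3.02-fold, Phlda3, which restrains AKT, 2.05-fold, the death receptor gene Tnfrsf10b 1.80-fold and Eda2r 1.64-fold, while Pmaip1, which encodes NOXA, fell 1.66-fold. Tnfrsf10b did not pass without DKO_Dppa2_KO replicate 2 or either CtbpDKO library (adjusted p up to 0.187), nor Pmaip1 without replicate 2 of either genotype (adjusted p up to 0.0892). Of 37 tested genes for repressors of the 2-cell state and CtBP partners, 2 were higher, Mycn (1.24-fold) and Prdm16 (1.59-fold), and 8 were lower. Among the lower were the histone methyltransferase gene Ehmt2 (1.48-fold), Hdac2 (1.48-fold), Myc (1.47-fold) and Rif1 (1.42-fold). Prdm16 passed without CtbpDKO replicate 2 and Mycn without CtbpDKO replicate 1, but neither without any other 1 library (adjusted p up to 0.272 and 0.168), and Rif1 did not pass without replicate 2 of either genotype (adjusted p up to 0.160). Of 23 interferon response genes, 3 were higher, including Ifitm1 (1.74-fold), and 3 lower, including the class I gene H2-K1 (2.08-fold). H2-K1 did not pass without DKO_Dppa2_KO replicate 2 (adjusted p = 0.0744). Of 23 lysosome and adhesion matrix genes, 4 were higher and 3 lower, Fn1, which encodes fibronectin, by 1.67-fold. Of 6 tested fibroblast markers, 2 were lower, Thy1 (2.90-fold) and Col5a1 (1.74-fold). Col5a1 passed without CtbpDKO replicate 2 but not without any other 1 library (adjusted p up to 0.219).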
